A study of Homo sapiens with 4 samples.

Results

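Col4a1 and Col4a2, which encode the chains of the main network collagen of vascular basement membranes, were described together with Angpt2, which encodes angiopoietin-2, and Sox17, which encodes a transcription factor of arterial endothelium. These 4 genes were taken by symbol, 1 locus each, from the 23698 mouse loci in every deposited table. The samples were subcutaneous xenograft tumours of MDA-MB-231, an established human triple-negative breast cancer line, grown in Balb/c nude mice, which lack mature T cells but keep macrophages, natural killer cells and B cells. Efficient tumours came from cells that the labels call caspase-3 efficient, and inhibited tumours from cells cultured with Z-DEVD-FMK, an inhibitor of the apoptosis protease caspase-3. Each kind was left without treatment or taken from mice given docetaxel, a taxane that stabilises microtubules, at 15 mg/kg when tumours measured 12 mm². Each of the 4 conditions was 1 library of ribosomal RNA depleted RNA, and the labels give neither the number of animals behind a library nor caspase-3 activity in the tumour. There is thus no replicate spread, and no difference below carries a p-value.

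Collagen IV is assembled inside the cell from alpha1 and alpha2 chains into a triple helix, secreted, and joined into a sheet that underlies endothelium and encloses pericytes. Its genes lie head to head and are transcribed away from each other from a shared promoter. Endothelial cells, pericytes, fibroblasts and adipocytes make it, so it marks the vessel wall without being limited to it. Angiopoietin-2 is released by endothelial cells, most of all at sprouting vessels of tumours, and competes with angiopoietin-1 for the receptor Tie2, encoded by Tek. Sox17 acts in arterial specification and in the response of endothelium to Notch and Wnt signals.

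The values are FPKM, mapped fragments scaled to transcript length, not to the genomic spans given below, and to library depth. Levels of different genes can thus be set side by side. Each comes with a lower and an upper bound, given here in parentheses and taken as a 95% interval for error in estimating that 1 library. The tables hold mouse loci only, and reads of the human tumour cells that align to mouse sequence cannot be told apart from host reads. In bulk tumour, fewer cells of a type and less RNA per cell cannot be told apart either. Between 1842 and 2776 loci were above 0 per library, crowded at the starts of chromosomes. In 14 stretches that begin at a first annotated locus, a value above 0 in 3 or more libraries was found for 489 of 828 loci (59.1%), and for 1107 of 22870 (4.84%) outside them. All 4 genes lie inside such stretches. The stretches were fitted to that same measure, values above 0 in 3 or more libraries, so the contrast follows in part from how they were drawn. Another 11 dense stretches away from the chromosome starts were counted as outside. On chromosome 8 the stretch ran to base 18884413 and held 57 such loci among 111, while the rest of that chromosome held 38 among 991. On chromosome 1 it ran to base 7163709 and held 8 among 14, against 41 among 1278 on the rest. A gene listed at 0 outside these stretches was therefore not read as absent.

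The head-to-head arrangement of the collagen IV pair holds in both species of the graft. Of the 4 symbols in their human form, 2, COL4A1 and COL4A2, were matched in the table of RefSeq promoters used here (GRCh38.p14). The human starts are separated by 126 bases at chr13:110307158-110307283, and that stretch is shown, plus strand, because it is the promoter that both collagen genes share. Capitals mark CCAAT, the CCAAT box, and GGGCGG, the GC box, searched on both strands. The mouse sequence was not used here.

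COL4A1/COL4A2: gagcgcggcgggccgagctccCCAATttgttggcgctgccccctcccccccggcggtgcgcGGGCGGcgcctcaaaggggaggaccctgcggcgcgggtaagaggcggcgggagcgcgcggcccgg

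Each motif occurred 1 time, CCAAT from base 22 and GGGCGG from base 62 of the stretch, without overlap. CCAAT was found in 21.1% and GGGCGG in 34.6% of the 126 bases before the start of 35116 RefSeq genes. The human stretch had 80.2% G or C and 20 CG dinucleotides. An opposite-strand start within that distance was annotated for 6.43% of 17787 plus-strand genes.

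In the mouse build mm9, Col4a1 spans chromosome 8 from 11198423 to 11312826 and Col4a2 from 11312829 to 11449287, so the annotated loci are 2 bases apart. Col4a1 was the most abundant of the 4 genes in every library. It stood at 26.7 FPKM (21.1 to 32.2) in the untreated efficient tumour, 31.5 (26.1 to 36.9) in the docetaxel efficient tumour, 27.9 (22.0 to 34.1) in the untreated inhibited tumour and 48.9 (39.8 to 58.3) in the docetaxel inhibited tumour. The last library was high, with bounds that met those of no other library, while the bounds of the other 3 overlapped in every pair. The docetaxel inhibited level was 1.75 times the untreated inhibited level (interval from both sets of bounds 1.31 to 2.34) and 1.55 times the docetaxel efficient level (1.20 to 2.00). These ratios share the docetaxel inhibited library and are not separate observations.

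Col4a2, the partner chain, was at 14.7 FPKM (10.5 to 18.6), 21.4 (16.9 to 25.9), 16.5 (11.8 to 20.9) and 20.2 (13.9 to 26.0) in the same order of libraries. As deposited, both docetaxel libraries were above both untreated ones, but the bounds overlapped in all 6 pairs of libraries. With docetaxel the level was 1.46 times the untreated one in efficient tumours (1.03 to 2.06) and 1.22 times in inhibited tumours (0.813 to 1.83). The inhibited and efficient docetaxel libraries differed by a ratio of 0.941 (0.652 to 1.36). Unlike Col4a1, Col4a2 was not highest in the docetaxel inhibited library. Its ratios for that library had intervals that overlapped those of Col4a1, so these intervals alone do not show that Col4a2 lacked a similar rise.

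**Figure D1:**
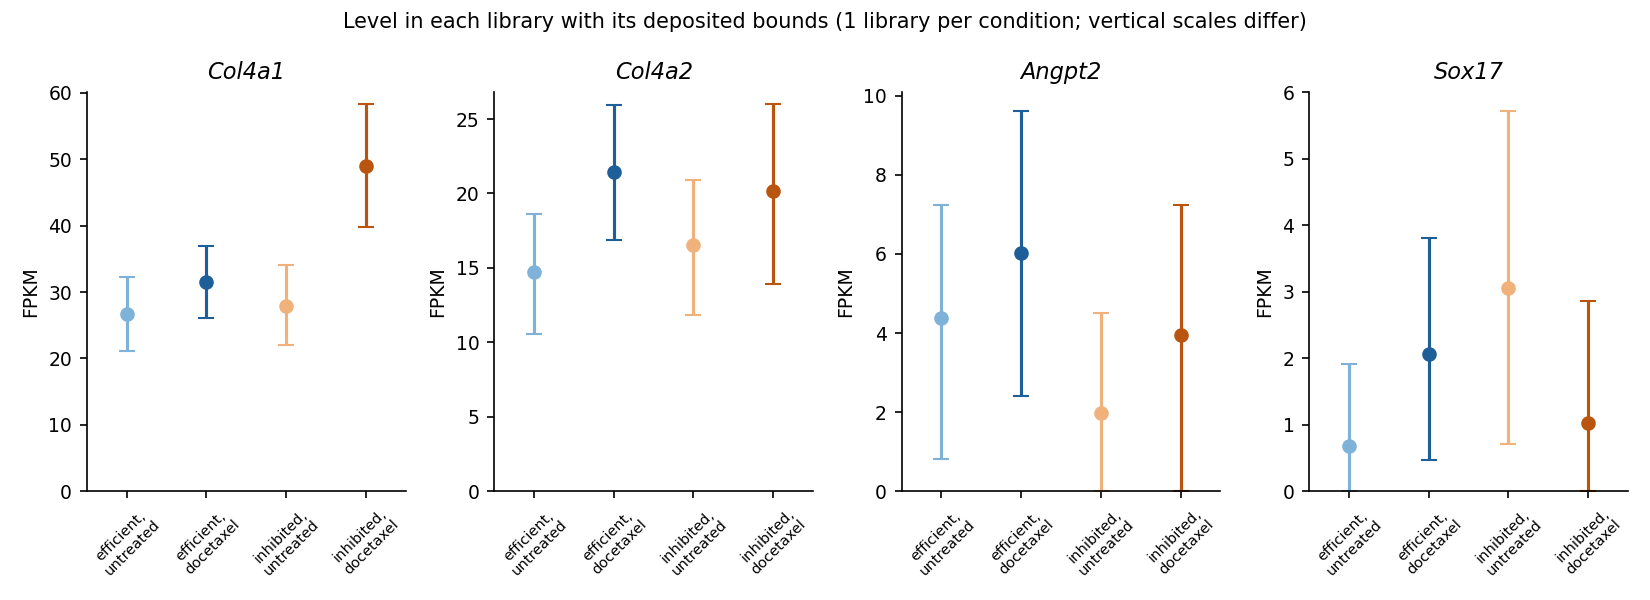
FPKM of Col4a1, Col4a2, Angpt2 and Sox17 in the 4 libraries, with 1 point per library and bars for the deposited bounds; vertical scales differ between genes. For Col4a1 the bar of the docetaxel inhibited library, from 39.8 to 58.3, lies above the other 3, while the bars of the other genes overlap throughout.

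The ratio of Col4a1 to Col4a2 within a library does not depend on scaling each library by 1 factor. Col4a1 exceeded Col4a2 in all 4 libraries, with bounds apart each time. The ratio was 1.81 (1.29 to 2.56) in the untreated efficient, 1.47 (1.12 to 1.93) in the docetaxel efficient, 1.69 (1.19 to 2.40) in the untreated inhibited and 2.43 (1.70 to 3.46) in the docetaxel inhibited tumour. All 4 intervals overlapped. Set against each other under docetaxel, the inhibited ratio was 1.65 times the efficient one (1.05 to 2.58). Between docetaxel and no treatment it was 1.44 times in inhibited tumours (0.873 to 2.37) and 0.811 times in efficient tumours (0.523 to 1.26).

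**Figure D2:**
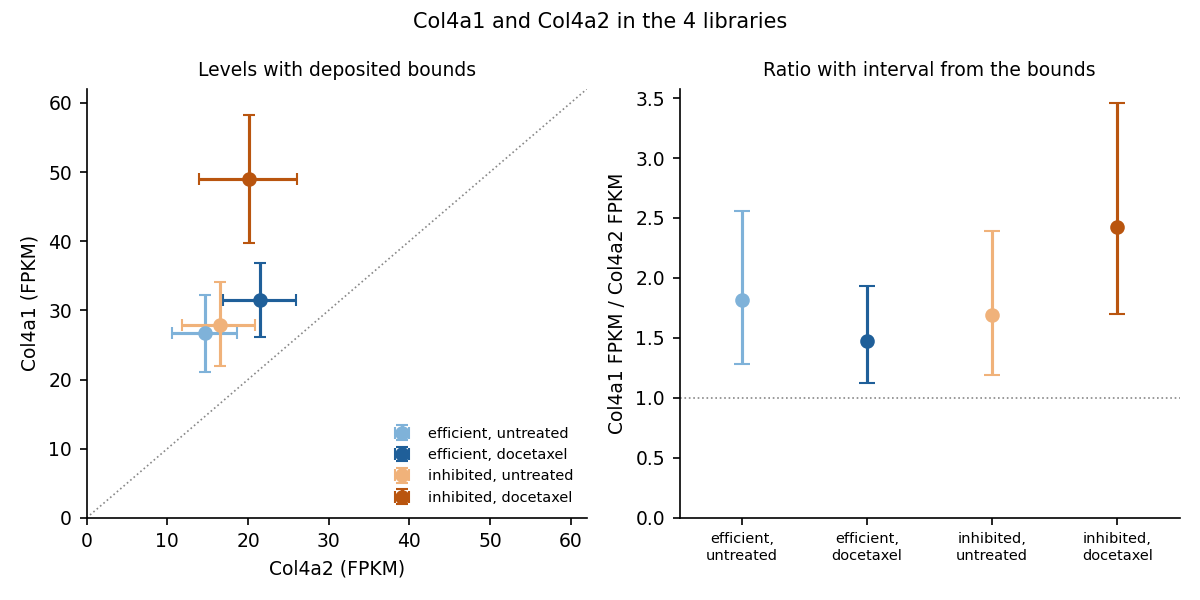
Left, Col4a1 against Col4a2 in FPKM, with 1 point per library, deposited bounds as bars and a dotted line of equal levels; right, the ratio of Col4a1 to Col4a2 per library with its interval. All 4 points lie above the line of equal levels, and the docetaxel inhibited library has the highest ratio, 2.43, with an interval that overlaps the other 3.

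Angpt2 (chromosome 8, 18691337 to 18741551) was low, at 4.38 FPKM (0.805 to 7.24), 6.01 (2.40 to 9.62), 1.97 (0 to 4.52) and 3.94 (0 to 7.24) in the same order. It was higher with docetaxel than without in both kinds of tumour and lower in inhibited than in efficient tumours at both treatments, yet all 6 pairs of bounds overlapped. The docetaxel to untreated ratio was 1.37 in efficient tumours (0.532 to 3.54) and 2.00 in inhibited tumours (0.429 to 9.37). Intervals this wide hold both a decrease and a several-fold increase. If the bounds reflected counting alone, they would correspond to between 2.38 and 11.1 fragments per library, against 84.1 to 137 for Col4a1 and 44.5 to 90.2 for Col4a2.

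Sox17 (chromosome 1, 4481009 to 4486494) was the lowest of the 4 genes in 3 libraries, at 0.680 FPKM (0 to 1.91), 2.07 (0.475 to 3.80), 3.06 (0.714 to 5.72) and 1.02 (0 to 2.86). The untreated inhibited library was highest and the untreated efficient library lowest, and all 6 pairs of bounds overlapped. In the untreated inhibited library Sox17 stood above Angpt2, with overlapping bounds. Its values correspond to 1.23 to 6.17 fragments in the same sense. The ratio of 4.49 between inhibited and efficient untreated tumours had an interval of 0.618 to 32.6, so even its direction was not settled.

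Differences were then set on the scale of log2(FPKM + 1), on which changes of low genes come out smaller than they are. A call needed a difference of 2-fold or more on that scale, bounds that did not overlap, the status OK, and 5 FPKM or more in either library. None of the 4 genes was called in any of the 4 comparisons. In efficient tumours, where 3 of the genes reached 5 FPKM, 8.1% of 667 compared loci were called higher with docetaxel and 0.9% lower. In inhibited tumours 2 of the genes reached it, and 3.81% of 630 loci were called higher and 1.75% lower. For inhibited against efficient tumours the shares were 2.51% higher and 3.35% lower of 597 loci without treatment, with 2 genes compared, and 3.99% higher and 9.27% lower of 701 loci under docetaxel, with 3 compared. Without the 2-fold criterion, bounds were apart for Col4a1 alone and in 2 comparisons. One was docetaxel against no treatment in inhibited tumours, where 6.67% of loci were apart and higher and 2.06% apart and lower. The other was inhibited against efficient tumours under docetaxel, with 5.14% higher and 10.3% lower. In the comparisons where none of the 4 genes had bounds apart, 10.5% of loci were higher and 1.65% lower with docetaxel in efficient tumours, and 3.69% higher and 4.36% lower in untreated inhibited tumours.

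The Col4a1 difference was 0.79 on the log2 scale with docetaxel in inhibited tumours (0.38 to 1.19), beside a median of 0.37 over all compared loci, and 191 of 630 loci lay above the Col4a1 value. It was 0.62 between inhibited and efficient tumours under docetaxel (0.26 to 0.98), beside a median of -0.05, and 165 of 701 loci lay above the Col4a1 value. In efficient tumours the docetaxel difference was 0.23 (-0.14 to 0.61), under the median of 0.34, and between the untreated tumours it was 0.06 (-0.36 to 0.48). For Col4a2 the docetaxel difference was 0.51 in efficient tumours (0.04 to 0.98) and 0.27 in inhibited tumours (-0.28 to 0.83). In efficient tumours 273 of 667 loci lay above the Col4a2 value. Since the medians of the docetaxel comparisons were above 0, median scaling of the libraries moved the Col4a1 docetaxel difference to -0.02 in efficient and 0.38 in inhibited tumours and that of Col4a2 in inhibited tumours to -0.12. The Col4a1 bounds then overlapped between docetaxel and untreated inhibited tumours (ratio 1.32) but stayed apart between inhibited and efficient tumours under docetaxel (ratio 1.49). The Col4a2 docetaxel difference in efficient tumours became 0.26 with median scaling and 0.19 with quantile normalization.

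**Figure D3:**
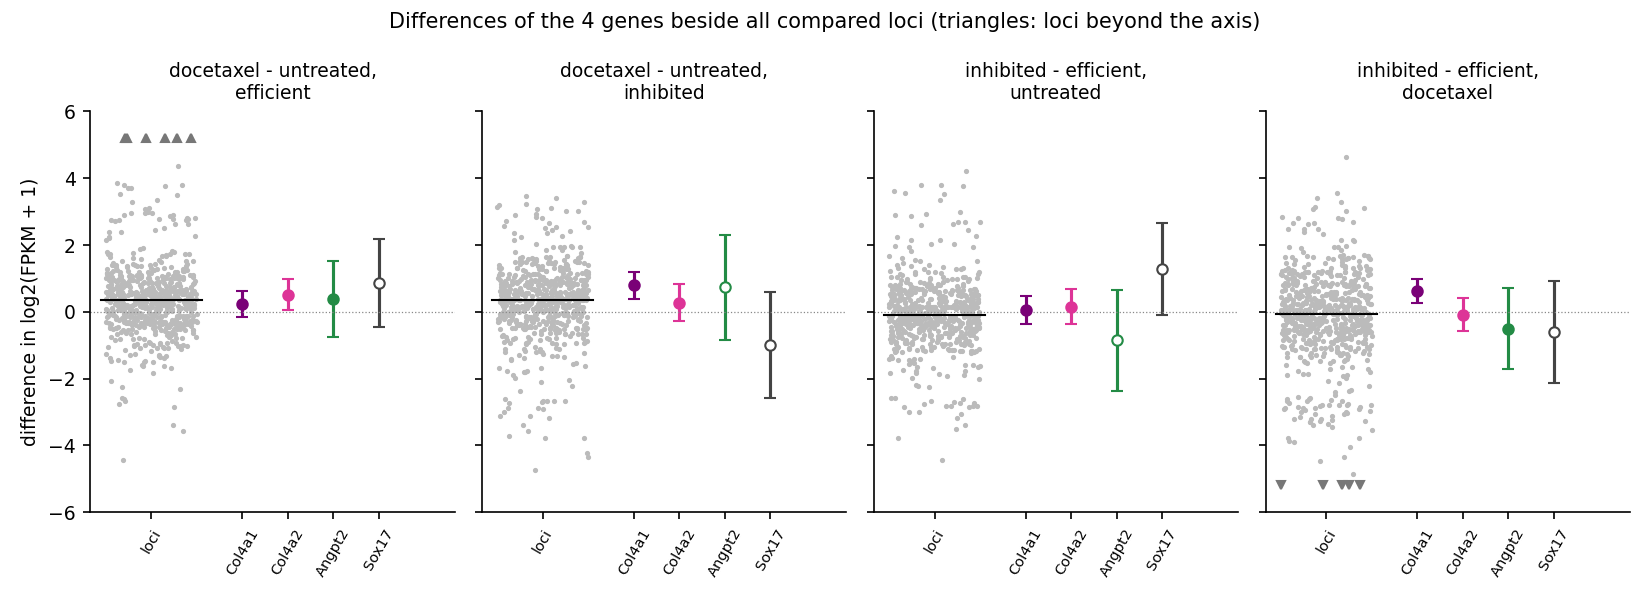
Difference in log2(FPKM + 1) for the 4 comparisons; grey points are all compared loci with their median as a black line, triangles are loci beyond the axis, and coloured points are the 4 genes with intervals from the deposited bounds, open where a gene was under 5 FPKM in both libraries. Of the 4 genes only Col4a1 in the docetaxel inhibited comparisons and Col4a2 in the first panel have an interval clear of 0, with values as deposited.

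The difference between the docetaxel differences, inhibited minus efficient, was 0.56 for Col4a1 (0.00 to 1.11), -0.24 for Col4a2 (-0.97 to 0.49), 0.35 for Angpt2 (-1.58 to 2.29) and -1.87 for Sox17 (-3.93 to 0.19), on the scale used above. Of 775 loci that reached 5 FPKM somewhere, 467 had a larger one in size than Col4a1 and 636 than Col4a2. No test of this difference was possible with 1 library per condition.

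Other genes of the basement membrane could hardly be read. Of 28 listed genes 27 were in the tables, 9 were above 0 in at least 1 library and 4 in all 4, and only Col4a1 and Col4a2 lay in the chromosome-start stretches and reached 5 FPKM. None was called in any comparison. The laminin beta2 gene Lamb2, outside the stretches, was at 4.04, 3.60, 3.71 and 4.41 FPKM, and its bounds overlapped in every pair. Fbln2, encoding the matrix protein fibulin-2, was at 0.964, 2.55, 1.62 and 1.45 FPKM. The laminin chain genes Lamc1 and Lama4 and the endostatin-type collagen genes Col15a1 and Col18a1 were each listed at 0 in at least 1 library and at most at 1.07 FPKM elsewhere. Over list members at 1 FPKM or more the median log2 difference was 0.23 and 0.24 with docetaxel in efficient and inhibited tumours, against 0.22 and 0.27 over all loci at that level. For inhibited against efficient tumours it was 0.06 untreated and 0.08 under docetaxel, against -0.14 and -0.06. Col4a1 and Col4a2 are themselves among the 4 or 5 members behind these medians. After median scaling the list medians with docetaxel were -0.02 and -0.13.

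The enzymes and receptors that act with collagen IV gave 4 of 22 and 4 of 11 loci above 0, none in the stretches and none at 5 FPKM. Leprel2, a prolyl 3-hydroxylase of collagen, had values in all 4 libraries, at 0.773, 1.76, 1.74 and 2.32 FPKM. P4hb, Lepre1 and Sec23a, of collagen hydroxylation and export, and the collagen receptor genes Itgb1, Itga11 and Ddr1 and the collagen IV binding receptor gene Gpr126 were listed at 0 in at least 1 library each. No member of either list was called.

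In the angiopoietin pathway 5 of 13 loci were above 0, and Angpt2 was the one in a stretch. Tek, the receptor that Angpt2 binds, was at 0.895 (0 to 2.14), 1.35 (0.320 to 2.56), listed at 0, and 1.34 FPKM (0 to 3.21). Angpt1, the activating ligand, was listed at 0 in both efficient libraries and at 1.73 and 1.54 FPKM in the inhibited ones. Ptprb, a phosphatase acting on Tie2, and Foxo1, a transcription factor that drives Angpt2, had values in the untreated inhibited library alone, at 0.191 and 0.418 FPKM. No ratio of Angpt2 to Angpt1 could be formed for efficient tumours.

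Of 24 genes of VEGF and Notch signalling 6 were above 0, with Nrp2, Nrp1, Notch4, Dll1, Heyl and Flt1 at 1.34 FPKM or less. Of 22 endothelial transcription factor loci 7 were above 0 and Sox17 was the one inside a stretch. Foxc2, a forkhead factor of vascular and lymphatic development outside the stretches, was at 24.5 (16.1 to 32.2), 22.2 (14.7 to 29.5), 12.4 (6.57 to 18.1) and 24.9 FPKM (15.4 to 35.1). The untreated inhibited library was low, with bounds overlapping those of the other 3. Ets1 was at 2.60, 2.62, 3.41 and 1.95 FPKM and Gata2 at 0.735 or less, while Elk3, Epas1 and Klf2 each had a value in 1 library. No member was called in either list.

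Markers of the vessel wall gave no measure of vessel content. Of 20 endothelial markers 3 were above 0 and 17 were listed at 0 throughout, Cdh5, Kdr and Tie1 among them, and none lay in the stretches. Their summed level was 3.18, 1.85, 1.10 and 3.30 FPKM in the same order of libraries, with Pecam1 at 1.96, 0.496, 0.734 and 1.96 FPKM. Of 14 mural cell markers, those of pericytes and smooth muscle, 3 were above 0, and Cspg4 was at 2.03, 4.19, 2.56 and 2.28 FPKM with overlapping bounds, beside Notch3 and Pdgfrb, each with a value in the docetaxel efficient library alone.

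Col1a2, a chain of collagen I, was the 1 of 15 fibroblast markers inside a stretch, and the other fibroblast markers reached at most 0.855 FPKM. Docetaxel libraries were high for Col1a2, at 515 (470 to 532) against 369 (335 to 401) FPKM in efficient and 579 (528 to 624) against 371 (337 to 401) in inhibited tumours, with bounds apart as deposited but not after median scaling. After quantile normalization the efficient comparison reversed, to 354 against 444, and the inhibited one stayed higher with docetaxel, at 652 against 444, with bounds apart in both. Col4a1 was 7.24%, 6.13%, 7.52% and 8.44% of Col1a2 in the order above, and all 4 intervals, from 5.11% to 10.4%, overlapped. The part of collagen-producing stroma in the Col4a1 values was not tested. Col4a2 was 3.99%, 4.16%, 4.45% and 3.48% of Col1a2.

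**Figure D4:**
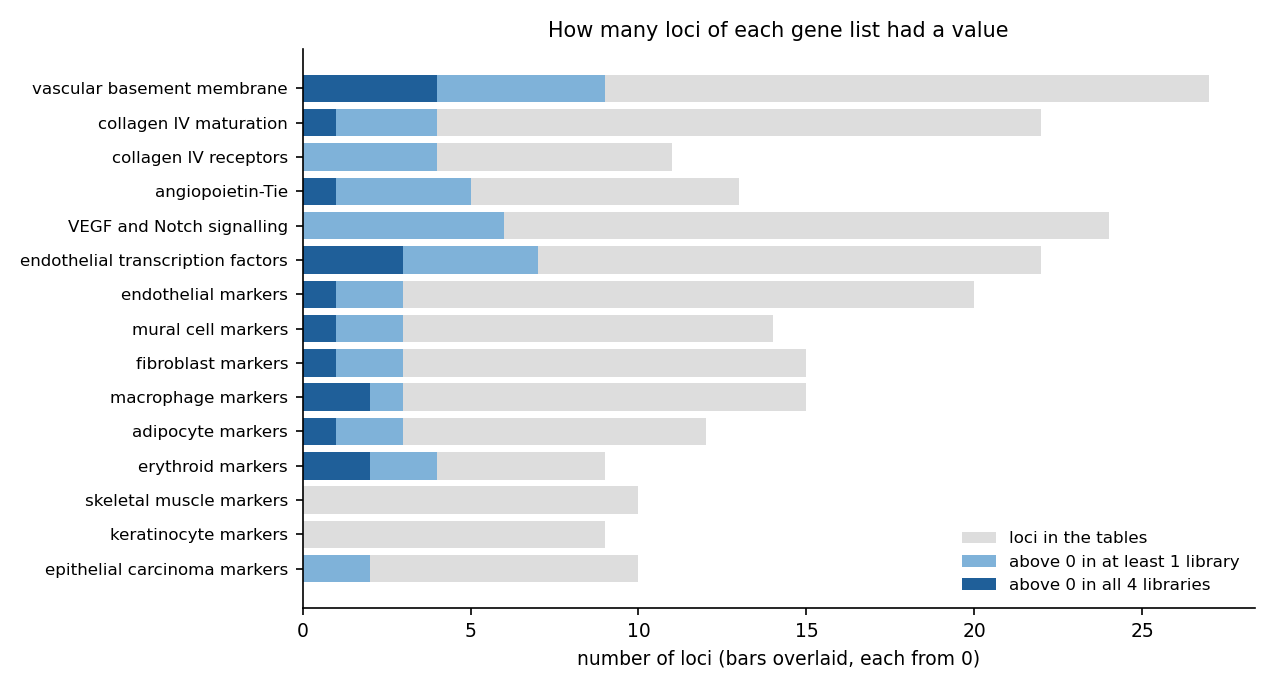
Number of loci of each gene list in the tables (grey), above 0 in at least 1 library (light blue) and above 0 in all 4 libraries (dark blue), with bars overlaid and each starting at 0. The basement membrane list has 4 loci above 0 in all libraries of 27, and the endothelial markers have 1 of 20.

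The other cell types were read through few loci as well. Of macrophage markers 3 of 15 loci were above 0, Mmp12 at 87.8, 210, 55.2 and 94.8 FPKM. Of adipocyte markers 3 of 12 were, and the list sum was 12.6, 429, 11.6 and 12.4 FPKM, almost all of it Retn in the docetaxel efficient library. Of erythroid loci 4 of 9 were, with sums of 208, 1767, 935 and 427 FPKM from alpha globin. All 3 lists summed highest in the docetaxel efficient library. As deposited, Col4a2 and Angpt2 were also highest there, with bounds overlapping in every pair of libraries, and Col4a1 was not. After quantile normalization Col4a2 was highest in the untreated inhibited library, at 19.9 FPKM against 18.6 in the docetaxel efficient one. The part of these cell types in those values was not tested. In the docetaxel efficient library the sums rested on Mmp12, Retn and alpha globin. Cidea (2.07, 9.76, 11.6 and 12.4 FPKM), Mrc1 (0.389, 0.293, 0.437 and 0.584 FPKM) and Slc4a1, of the same lists, were highest in another library. Cd163 and Lep had a value in the docetaxel efficient library alone. Keratinocyte and skeletal muscle markers were at 0 in all libraries, and of epithelial markers 2 of 10 loci were above 0.

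Neighbouring loci did not share the Col4a1 pattern throughout. Within 1000 kb of the boundary between the collagen genes lay 16 loci, the pair included, of which 8 were above 0 in at least 3 libraries. Rab20, a small GTPase gene 4689 bases beyond Col4a2, was listed at 0 in the untreated efficient library and at 12.6, 4.31 and 11.5 FPKM in the others, and met the rule for docetaxel in efficient tumours against that listed 0, which gives no level. Ing1, a chromatin reader gene, was at 5.34, 10.4, 12.0 and 2.29 FPKM and was called lower in the docetaxel inhibited tumour in both of its comparisons, where Col4a1 was high. Ankrd10, at 9.56, 8.62, 5.06 and 17.2 FPKM, and Carkd, at 7.22, 2.82, 2.03 and 10.8 FPKM, were highest in that library without being called. Arhgef7 was at 6.06, 8.10, 9.43 and 12.6 FPKM, also highest there and also not called. On the other side the nearest locus, 9530052E02Rik, lay 143881 bases away and had a value in 1 library.

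**Figure D5:**
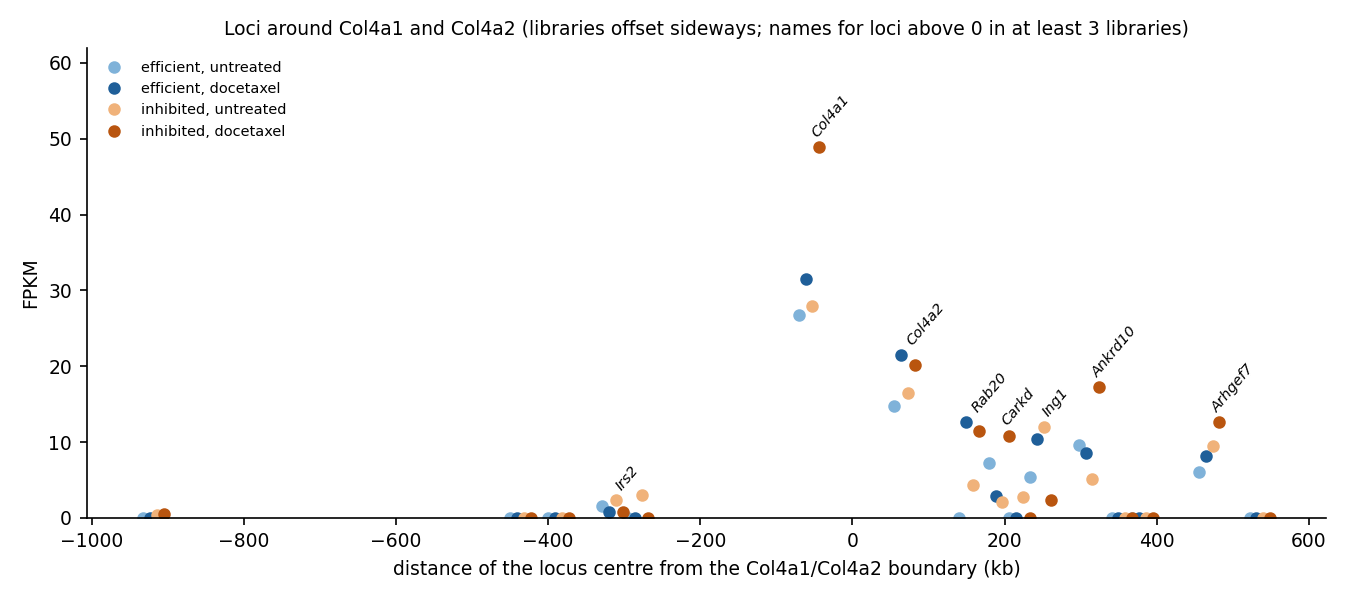
FPKM of the 16 loci within 1000 kb of the boundary between Col4a1 and Col4a2 against the distance of each locus centre in kb, with 1 point per library, offset sideways. Col4a1 is the most abundant locus of the window in all 4 libraries, and Ing1 is lowest in the docetaxel inhibited library, at 2.29 FPKM, where Col4a1 is highest.

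Angpt2 lies inside the span of Mcph1, a gene of chromosome condensation annotated from 18595173 to 18803188, and the tables give no strand. Mcph1 was listed at 0 in both efficient libraries and at 1.01 (0 to 2.42) and 0.677 FPKM (0 to 1.94) in the inhibited ones. Angpt2 had the opposite order between efficient and inhibited tumours, with bounds that overlapped in every pair. No relation between Mcph1 and Angpt2 can be read from such values. The sources used here do not say how reads were divided between overlapping loci. The next locus, Agpat5, the last of the stretch, was at 1.65, 0.831, 3.08 and 3.30 FPKM. For Sox17 the nearest loci were Rp1, listed at 0 throughout, and Mrpl15, a mitochondrial ribosomal protein gene, at 4.98, 1.88, 1.34 and 5.61 FPKM.

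Loci most like each gene were ranked by the distance between their log2(FPKM + 1) values over the 4 libraries, each centred on its own mean, among 639 loci above 0 in every library. With 4 points such likeness describes these libraries only. Closest to Col4a1 were Epc1 (10.9, 13.5, 11.5 and 21.0 FPKM, distance 0.05), Lhfpl4 and Slc25a10. Closest to Col4a2 were Vps54 (7.51, 11.3, 8.43 and 9.94 FPKM, distance 0.07), Kif5b and Ccdc104. Closest to Angpt2 were Malat1, a nuclear long noncoding RNA (92.8, 125, 49.8 and 81.5 FPKM, distance 0.08), AF529169 and Casp1. The Angpt2 bounds reached 59.9% to 130% of its value to each side, so its closest loci are not settled. On this scale changes of Angpt2, a low gene, are also shrunk more than those of Malat1. Closest to Sox17 were Ints8, Zbtb2 and Cln8, at distances of 0.36 to 0.38.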

How the data were processed

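RNA sequencing of 4 xenograft tumours, 1 library per condition, was analysed. The submitters' processing notes name TopHat, Cufflinks and the mouse build mm9, without versions. The deposited tables, per the file headers, give FPKM, confidence bounds and a status for each of 23698 loci, of which 285 per library were LOWDATA and entered no comparison. The sources used here do not give the depth. Starts were raised by 1 to count from 1. The 4 genes and the gene lists were chosen with earlier results of these data known. Computed here were log2(FPKM + 1) differences, intervals combining the distances from value to bound of both libraries on the log scale (the upper distance where the lower bound was 0), and fragment equivalents, the square of 2 times FPKM over that distance. These cover error within a library only. No test was made.

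Chromosome-start stretches came from a model with 2 states (switch probability 0.005, 30 rounds) of loci above 0 in at least 3 libraries, added after the data were seen. The 4 genes, all measured genes of the pathway and vessel lists, neighbours and the 3 most alike loci were named by rule. From these, 1 item is not reported here. Other genes of the window around Col4a1 and of the cell type lists were named after their values were seen. The comparison rule, the scaling and the model were tested on simulated data. Human promoters are from RefSeq (GRCh38.p14). Alternatives were pseudocounts of 0.1 and 5, median scaling, quantile normalization, a minimum of 1 or 20 FPKM or none, no interval criterion, a 3-fold threshold, and only loci above 0 in both libraries. Python 3.11.15, numpy 2.4.6, pandas 2.3.3 and matplotlib 3.10.9 were used.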

Additional observations from a re-analysis of the deposited data

Results flagged for a closer look

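The Sox17 values had opposite directions in matched contrasts, but every interval included 0 and no library reached 5 FPKM. With docetaxel the Sox17 log2 difference was 0.87 (-0.45 to 2.18) in efficient and -1.01 (-2.59 to 0.58) in inhibited tumours. For inhibited against efficient tumours it was 1.27 (-0.11 to 2.65) untreated and -0.60 (-2.13 to 0.93) under docetaxel. That is the same pattern read along the other axis. The Col4a2 difference between inhibited and efficient tumours was 0.16 untreated and -0.08 under docetaxel, both within their intervals around 0. Neither difference between groups was tested, since each group was 1 library.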

How the results depend on the processing

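No paired analysis was possible because each condition was 1 library, and leaving out a library would end its comparisons. None of the 4 genes was called under any of the 11 settings run, the main one included. The minimum of 20 FPKM, the 3-fold threshold and the limit to loci above 0 in both libraries could only remove calls. A pseudocount of 5 could only shrink differences. As deposited, bounds of Col4a2, Angpt2 and Sox17 overlapped in every pair of libraries. Hence no pseudocount or minimum could call them while the interval criterion was kept. Without that criterion, the minimum of 5 FPKM still barred Sox17. Its log2 differences of 1.27 between untreated tumours and -1.01 with docetaxel in inhibited tumours passed 2-fold. Of 80 recomputed differences of the 4 genes 79 stayed inside their interval. The exception was Col4a1 with docetaxel in efficient tumours, at -0.15 after quantile normalization. The same difference was -0.02 after median scaling, inside its interval. Col4a2 with docetaxel in inhibited tumours also changed sign, to -0.12 with median scaling and -0.15 with quantile normalization. The other 18 kept their sign. The intervals of Angpt2 and Sox17 were wide, so staying inside them says little about stability. For Sox17 the difference between inhibited and efficient untreated tumours ran from 0.50 to 2.02 over the pseudocounts and scalings. Col4a1 as a percentage of Col1a2 after quantile normalization was 7.76% and 6.75% in the docetaxel efficient and inhibited libraries. The scalings brought the median docetaxel difference of compared loci from 0.34 and 0.37 to 0.03 and -0.08 (median scaling) and to -0.07 and 0.04 (quantile).

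Counts of called loci over the whole tables moved more. With docetaxel in efficient tumours, 54 higher and 6 lower became 24 and 1 at a minimum of 20 FPKM, 141 and 46 without the interval criterion, and 34 higher with loci above 0 in both libraries. The lower count there was 2 with a pseudocount of 5, 14 with median scaling, 17 with quantile normalization, 11 with a minimum of 1 FPKM or none, and 3 with the 3-fold threshold. With docetaxel in inhibited tumours, 24 higher and 11 lower became 12 and 19 (median scaling), 15 and 18 (quantile), 12 and 1 (minimum 20 FPKM) and 127 and 57 (no interval criterion). It was 15 higher at 3-fold, 19 lower at a minimum of 1 FPKM or none, and 4 lower with loci above 0 in both. The share of higher calls under docetaxel went from 90% to 72.5% and 67.9% in efficient and from 68.6% to 38.7% and 45.5% in inhibited tumours with median and quantile scaling. For inhibited against efficient untreated tumours, 15 higher and 20 lower became 7 and 5 at 20 FPKM and 60 and 82 without the interval criterion, with 34 lower at a minimum of 1 FPKM or none and 12 lower above 0 in both. Under docetaxel, 28 higher and 65 lower became 108 and 132 without the interval criterion, with 13 higher at 3-fold, 21 lower at 20 FPKM, 112 lower at 1 FPKM or none and 30 lower above 0 in both. The bounds of Angpt2 and Sox17 span at least 59.9% of their value to each side, and the part of depth in that width was not tested.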
